A study of Mus musculus with 4 samples.

Results

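The genes described here are 10 genes of megakaryocytes, the bone marrow cells that make platelets, and of platelets themselves: Pf4, Ppbp, Vwf, Gp9, Gp1bb, Gp5, Gp6, Itga2b, Gfi1b and Nfe2. They were chosen by name, as the probes whose gene name is one of these symbols, which gave 12 probes of the 39429 on the array and 10 genes of 31660. RNA was read on 1-colour Agilent arrays in preproB cells, B-lineage precursors of mouse bone marrow. The sort kept cells that were positive for B220 and CD43 and negative for lineage markers, BP1 and CD24. The EnhDel group (2 arrays) came from Enh(f/f);Mx1-Cre mice, which carry loxP sites around the +37 kb enhancer of Cebpa and the Mx1-Cre recombinase, and the labels give its 2 samples as males of 24 weeks without the enhancer. The control group (2 arrays) came from Enh(f/f) mice with the enhancer, labelled as a female of 26 weeks (replicate 1) and a male of 24 weeks (replicate 2). All mice were C57BL/6, all carried the floxed enhancer, and all were given 3 doses of pIpC, a double-stranded RNA that induces interferon, 5 weeks before the cells were taken. Mx1-Cre is switched on by interferon in many cell types and not in B-cell precursors alone, and the control mice had no Cre, so an effect of losing the enhancer and an effect of carrying Cre cannot be told apart.

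Megakaryocytes fill their alpha granules with chemokines and adhesive proteins and carry on their surface the receptors with which platelets bind a damaged vessel wall. The glycoprotein Ib-IX-V complex binds von Willebrand factor, glycoprotein VI binds collagen, and the integrin of which Itga2b encodes the alpha chain binds fibrinogen. The genes are under the control of GATA, ETS and RUNX factors together with Gfi1b and Nfe2, and several of these regulators also serve red cell precursors and stem cells. PreproB cells are lymphoid precursors, in which these surface and granule genes are not known as characteristic products.

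Between 59.6% and 64.9% of the probes on each array were well above background by the scanner software's test, and no spot was saturated. Signals are given below as normalized signal, the background-corrected signal scaled so that the 4 arrays share 1 value for their 75th percentile. Levels of different probes cannot be set against each other, since each probe binds with its own efficiency. Cebpa, whose enhancer was targeted, had a normalized signal of 134 and 287 on the EnhDel arrays, against 1301 and 846 on the control arrays, a log2 difference of -2.42 ± 0.45 (SE, adjusted p = 0.248 in limma). That value reports the transcript, and the deletion itself was not measured. Of the genes behind the sorting gate, the B220 gene Ptprc and the CD43 gene Spn were well above background on all 4 arrays and the BP1 gene Enpep on none. The CD24 gene Cd24a was well above background on all 4 arrays, at 4699 and 1909 on the EnhDel arrays, against 4892 and 5809 on the control arrays. Xist went against the labels on 2 arrays. Xist was not well above background on control replicate 1, labelled female, and had a signal of 597 on EnhDel replicate 2, labelled male, with 3.64 to 5.69 on the other arrays. The Y-linked genes Ddx3y, Eif2s3y, Kdm5d and Uty were well above background on all 4 arrays and lowest on EnhDel replicate 2, where Ddx3y read 1559, with 3169 to 3883 on the other arrays. The values below are therefore also given without these arrays where that changes what they show, and p-values cover the spread of these 4 samples alone, since the labels do not say whether the EnhDel samples were separate animals or pools. The EnhDel arrays also lay further apart than the control arrays, with an SD of 0.611 for the log2 differences between the EnhDel arrays and of 0.333 between the control arrays.

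The probes that the results turn on are shown in full, because several genes rest on a single 60-base probe and 1 gene has 3 probes that disagree. Each is written as in the deposited files, with capitals for its longest run of G and C alone. Positions are those of build mm9 in the files. No mm9 annotation was used here, so the exon or UTR under a probe was not worked out.
Pf4 (chr5:91202275-91202334, plus strand): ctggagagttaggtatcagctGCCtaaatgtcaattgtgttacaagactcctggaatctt
Ppbp (chr5:91198970-91199029, plus strand): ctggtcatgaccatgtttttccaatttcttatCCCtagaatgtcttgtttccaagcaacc
Gp9 (chr6:87729650-87729709, plus strand): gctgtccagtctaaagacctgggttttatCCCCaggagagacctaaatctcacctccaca
Itga2b (chr11:102319453-102319661, minus strand): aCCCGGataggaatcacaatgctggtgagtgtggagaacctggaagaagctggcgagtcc
Gp1bb, first probe (chr16:18621107-18621166, minus strand): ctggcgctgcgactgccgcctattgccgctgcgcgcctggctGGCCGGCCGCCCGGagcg
Gp1bb, second probe (chr16:18621535-18621594, minus strand): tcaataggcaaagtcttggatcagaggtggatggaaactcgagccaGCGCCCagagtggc
Gp1bb, last probe (chr16:18621717-18621776, minus strand): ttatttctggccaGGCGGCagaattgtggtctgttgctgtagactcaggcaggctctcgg
The first Gp1bb probe was 80% G and C, with a run of 14, whereas the other 2 Gp1bb probes were each 55%. The Itga2b probe of 60 bases is given a span of 209 bases on the genome, more than its own length.

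The genes fell into those measured on every array, those measured on the EnhDel arrays alone, and those measured on none. Of the 10 genes, 6 (Pf4, Ppbp, Vwf, Gp1bb, Gfi1b and Nfe2) were well above background on all 4 arrays. Gp9 and Itga2b were well above background on both EnhDel arrays and on no control array, a pattern found in 1.27% of all 31653 genes with a usable probe. The reverse pattern was found in none of the 10 and in 0.234% of all genes. The lowest signal well above background, before scaling, was 12.4 and 12.2 on the EnhDel arrays, against 14.4 and 13.7 on the control arrays. Itga2b at 13.1 on EnhDel replicate 1 thus counted as measured, while Gp9 at 13.9 on control replicate 1 did not. Gp5 and Gp6 were not well above background on any array. No gene of the 19391 tested over the whole array, and none of the 8 tested here, passed an adjusted p of 0.05 in limma (0% called), where 11% of all tested genes had an unadjusted p under 0.05. With 2 arrays against 2, an exact permutation test of a single gene cannot give a two-sided p below 0.333, so none was used. Counted over all 10 genes, both EnhDel arrays lay above both control arrays in 6, which happened in 22.4% of all genes without a filter on dim probes. Both lay below in none, against 12.9% of all genes. Counted among those above were Gp5, dim on every array, and Gp9 and Itga2b, not well above background on the control arrays. Among the 6 genes measured on all 4 arrays the EnhDel arrays lay above in 3, against 25.1% of such genes. Of these 6, 3 had an unadjusted p under 0.05 in limma with EnhDel higher (Ppbp, Vwf and Gfi1b), against 4.89% of such genes. Their median log2 difference was 0.73, beside 0.05 for all genes measured on all 4 arrays. In sorted cells measured in bulk, fewer cells of a type and less RNA per cell cannot be told apart.

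**Figure D1:**
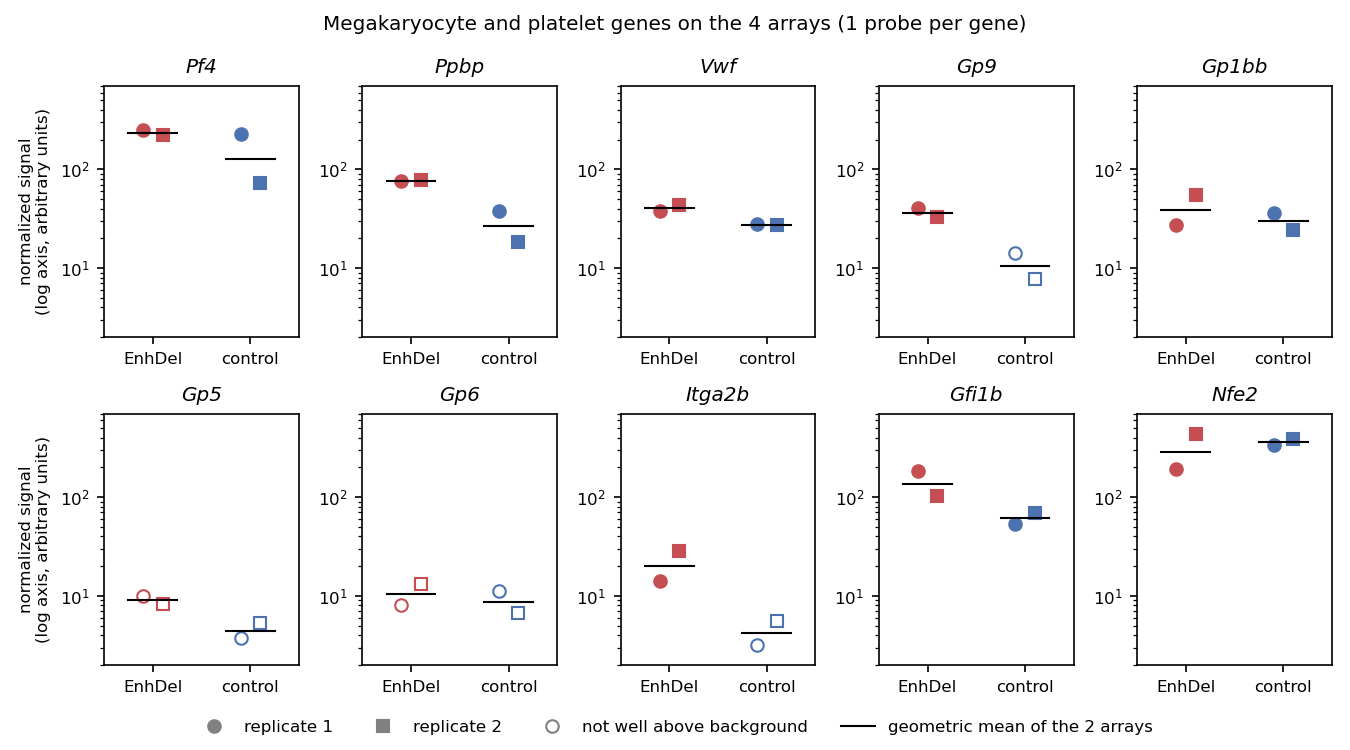
Normalized signal (log axis, arbitrary units) of the 10 genes on the 2 EnhDel and the 2 control arrays, with 1 probe per gene. Open symbols were not well above background and black lines are geometric means of 2 arrays. In Ppbp, Vwf, Gp9, Gp5, Itga2b and Gfi1b both EnhDel arrays lie above both control arrays, while Gp5 and Gp6 are open on every array.

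Pf4 and Ppbp encode platelet factor 4 and pro-platelet basic protein, chemokines stored in alpha granules, and their probes lie close together on chromosome 5. Ppbp had a normalized signal of 76.2 and 77.8 on the EnhDel arrays, against 37.9 and 18.4 on the control arrays. The EnhDel arrays nearly coincided, and both lay above the control arrays, which were 2.06-fold apart. The log2 difference was 1.54 ± 0.38 (SE, n = 2 per group; 95% interval 0.52 to 2.57), or 2.91-fold higher, with an adjusted p of 0.328 in limma. Without control replicate 2, the lower of the controls, it was 1.02, and without control replicate 1 it was 2.07.

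Pf4 had a normalized signal of 248 and 225 on the EnhDel arrays, against 227 and 72.1 on the control arrays. Control replicate 1 lay between the EnhDel arrays and control replicate 2 lay far below, so the groups overlapped. The difference of 0.89 ± 0.58 (SE) had a 95% interval from -0.67 to 2.45 and an adjusted p of 0.642 in limma. It rested on 1 array: it was 0.06 without control replicate 2 and 1.71 without control replicate 1. For both chemokine genes, and for Gp9, control replicate 1 read higher than control replicate 2, by 3.15-fold for Pf4, 2.06-fold for Ppbp and 1.81-fold for Gp9, although Gp9 was not well above background on either.

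Vwf encodes von Willebrand factor, an adhesive protein that megakaryocytes store and endothelial cells also make. It had a normalized signal of 38.4 and 44.0 on the EnhDel arrays, against 28.1 and 27.2 on the control arrays. The gap between groups was small but exceeded the gaps within them, which were 1.15-fold on the EnhDel arrays and 1.03-fold on the control arrays. The log2 difference was 0.57 ± 0.16 (SE; 95% interval 0.14 to 1.00), or 1.49-fold, with an adjusted p of 0.367 in limma. It was 0.67 without EnhDel replicate 1 and 0.47 without EnhDel replicate 2.

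Gp9, Gp1bb and Gp5 encode subunits of the receptor for von Willebrand factor, and the array read them very unequally. Gp9 had a normalized signal of 40.4 and 32.9 on the EnhDel arrays, against 14.2 and 7.85 on the control arrays, where it was not well above background. By group means it was at least 2.68-fold higher on the EnhDel arrays. This bound sets the EnhDel mean against the higher, on each control array, of the lowest signal well above background and the probe's own signal. Like those given below as at least, it covers the detection limit alone, and not the spread between arrays or the processing. The fitted log2 difference was 1.79 ± 0.34 (SE), with a 95% interval of 0.88 to 2.70, or 1.83-fold to 6.49-fold. It had an adjusted p of 0.252 in limma, the lowest of the 8 tested here, and ranked 162 of 19391 by size. Since Gp9 entered the test only through its EnhDel arrays, this rank is a description.

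Gp1bb was read by 3 probes that did not behave alike. The first probe had a normalized signal of 27.4 and 54.9 on the EnhDel arrays, against 36.1 and 24.6 on the control arrays, and was well above background on all 4. The EnhDel arrays lay on either side of control replicate 1, and the difference was 0.38 ± 0.41 (SE, adjusted p = 0.776 in limma). Without EnhDel replicate 2 it was -0.12 and without EnhDel replicate 1 it was 0.88. The probe listed last read 15.9 and 19.9 on the EnhDel arrays, against 4.82 and 11.4 on the control arrays, and was well above background on EnhDel replicate 2 alone. The second probe stayed between 2.50 and 3.04 on all 4 arrays and was well above background on none. The probe that gave the measurable signal was thus the one with 80% G and C.

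Gp5 had signals of 9.90 and 8.34 on the EnhDel arrays, against 3.72 and 5.28 on the control arrays. The EnhDel arrays read higher, but no value was well above background by the scanner software's test, so no fold is given. Gp6, the gene of the collagen receptor glycoprotein VI, read 8.12 and 13.2 on the EnhDel arrays, against 11.2 and 6.76 on the control arrays, all of them also not well above background. The groups overlapped, and neither gene was tested.

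Itga2b encodes the integrin alpha IIb chain, known as CD41, which marks megakaryocytes and platelets and also some early progenitors. It had a normalized signal of 14.1 and 28.5 on the EnhDel arrays, against 3.21 and 5.52 on the control arrays, where it was not well above background. The EnhDel arrays were 2.02-fold apart and both lay above the control arrays. Itga2b was at least 1.47-fold higher on the EnhDel arrays by the same kind of bound. Its fitted log2 difference of 2.25 ± 0.46 (SE) had an adjusted p of 0.274 in limma and ranked 69 of 19391 by size, again through a test it entered by its EnhDel arrays. The difference of Itga2b was 2.76 without EnhDel replicate 1, 1.74 without EnhDel replicate 2 and 1.86 without control replicate 1. Xist went against the labels on the last 2 of these arrays. The gene of its partner chain, Itgb3, which also pairs with another alpha chain and is not limited to platelets, was well above background on all 4 arrays, at 8603 and 7529 on the EnhDel arrays, against 8555 and 8658 on the control arrays. It differed by -0.10 ± 0.16 (SE, adjusted p = 0.849 in limma), and the difference between the values of both chains was not tested.

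Gfi1b encodes a transcriptional repressor that megakaryocytes and red cell precursors both need. It had a normalized signal of 184 and 103 on the EnhDel arrays, against 53.4 and 70.0 on the control arrays. Both EnhDel arrays lay above both control arrays, EnhDel replicate 1 by the wider margin. The log2 difference was 1.17 ± 0.34 (SE; 95% interval 0.24 to 2.09), or 2.24-fold, with an adjusted p of 0.387 in limma. It was 0.75 without EnhDel replicate 1 and 1.59 without EnhDel replicate 2.

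Nfe2 encodes the large subunit of NF-E2, a factor that drives late platelet formation. It had a normalized signal of 193 and 432 on the EnhDel arrays, against 335 and 389 on the control arrays. EnhDel replicate 1 lay below and EnhDel replicate 2 above both control arrays. The difference was -0.32 ± 0.42 (SE; 95% interval -1.46 to 0.82) with an adjusted p of 0.816 in limma, and it was -0.90 without EnhDel replicate 2 and 0.26 without EnhDel replicate 1. Nfe2 was the 1 gene of the 10 with a negative difference. Its small Maf partners Mafg and Mafk differed by -0.18 ± 0.20 and 0.07 ± 0.16 (SE, adjusted p = 0.781 and 0.889 in limma).

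The genes thus did not share 1 order of the arrays. On EnhDel replicate 1 Gfi1b read 1.79-fold higher than on EnhDel replicate 2, whereas Nfe2 read 2.23-fold, Itga2b 2.02-fold and the first Gp1bb probe 2.00-fold lower there. Ppbp, Pf4, Vwf and Gp9 differed between the EnhDel arrays by at most 1.23-fold.

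**Figure D2:**
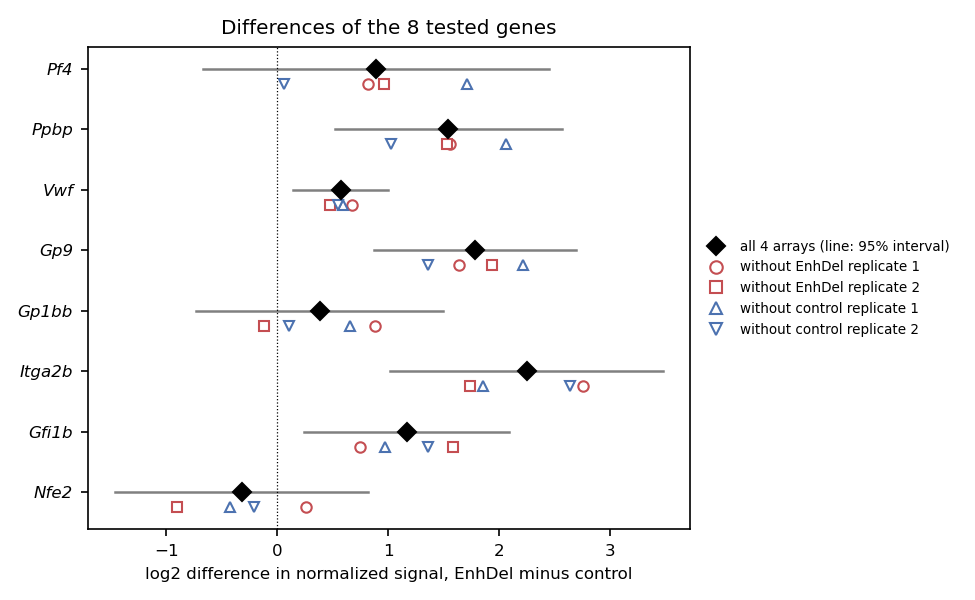
Log2 difference in normalized signal (EnhDel minus control) of the 8 tested genes, with the 95% interval of limma's fit as a line and, below each, the value with 1 array left out as an open symbol. Itga2b, Gp9, Ppbp, Gfi1b and Vwf keep positive values with any array left out, Pf4 comes to 0.06 without control replicate 2, and Gp1bb and Nfe2 lie on either side of 0.

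The promoters of the genes whose EnhDel arrays both lay above both control arrays are shown for Gp9, Itga2b, Gfi1b and Ppbp. Exact strings of letters, taken to stand for GATA and ETS factors, can be seen in them, and other forms of these sites were not searched. They are RefSeq sequences of build GRCm38.p6, each from 250 bases before to 50 after the gene's start and written in the direction of the gene. A promoter was found for 8 of the 10 genes. Capitals mark the GATA letters GATAA and the ETS letters AGGAAG on either strand, and no match overlapped another.
Gp9 (chr6:87777820-87778119, plus strand): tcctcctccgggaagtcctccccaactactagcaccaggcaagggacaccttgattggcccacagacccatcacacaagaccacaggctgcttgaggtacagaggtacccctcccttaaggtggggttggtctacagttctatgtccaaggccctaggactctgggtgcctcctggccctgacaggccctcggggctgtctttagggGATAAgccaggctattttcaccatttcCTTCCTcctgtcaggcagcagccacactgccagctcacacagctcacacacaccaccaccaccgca
Itga2b (chr11:102469834-102470133, minus strand): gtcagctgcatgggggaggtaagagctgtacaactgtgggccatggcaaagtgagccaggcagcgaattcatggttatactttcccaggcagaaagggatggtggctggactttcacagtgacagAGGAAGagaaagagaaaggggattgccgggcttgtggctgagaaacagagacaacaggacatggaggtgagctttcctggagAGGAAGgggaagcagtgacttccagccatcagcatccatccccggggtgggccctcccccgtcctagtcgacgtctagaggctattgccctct
Gfi1b (chr2:28621933-28622232, minus strand): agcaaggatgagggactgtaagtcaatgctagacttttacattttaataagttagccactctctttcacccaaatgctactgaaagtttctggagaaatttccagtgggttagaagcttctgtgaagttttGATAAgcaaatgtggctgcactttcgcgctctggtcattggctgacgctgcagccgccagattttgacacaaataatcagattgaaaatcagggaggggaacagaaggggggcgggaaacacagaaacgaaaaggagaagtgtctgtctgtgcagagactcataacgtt
Ppbp (chr5:90768268-90768567, plus strand): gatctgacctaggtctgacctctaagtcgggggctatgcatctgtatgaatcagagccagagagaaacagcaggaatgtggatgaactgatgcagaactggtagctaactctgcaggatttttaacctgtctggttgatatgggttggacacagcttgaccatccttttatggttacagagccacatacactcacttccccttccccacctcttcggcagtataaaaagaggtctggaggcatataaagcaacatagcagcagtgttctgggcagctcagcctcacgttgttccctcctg
The GATA letters were in 5 of the 8 promoters (Pf4, Gp9, Gp5, Gp6 and Gfi1b), beside 25.4% of 32851 promoters in the RefSeq table. The ETS letters were in 5 of the 8 (Pf4, Gp9, Gp1bb, Gp5 and Itga2b), beside 35.4% of all promoters. The RUNX letters TGTGGT, on either strand, were in Gp9 alone among the 8, beside 16.8% of all promoters, and the NF-E2 letters TGAGTCA were in none of the 8, beside 5.20%. Gp9 had a GATA match from 43 bases before its start and an ETS match from 16 before. Matches are a description of the letters, and their relation to the values was not tested. With both GATA and ETS letters, Gp9 and Gp5 (the latter dim on every array) had groups that did not overlap, and Pf4 had groups that did. With only GATA or only ETS letters, Itga2b and Gfi1b had groups that did not overlap, and Gp1bb and Gp6 had groups that did. Ppbp, with neither of these exact strings, had groups that did not overlap.

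Regulators of the lineage differed in both directions, and none of the 11 tested of 12 listed passed limma's threshold over all genes. Gata1, which megakaryocytes and red cells need, had a normalized signal of 213 and 89.2 on the EnhDel arrays, against 27.2 and 37.7 on the control arrays. It differed by 2.11 ± 0.48 (SE, adjusted p = 0.304 in limma), and as with Gfi1b EnhDel replicate 1 was the higher of its group. Tal1, a partner of the GATA factors, read 137 and 92.1 on the EnhDel arrays, against 40.9 and 41.8 on the control arrays, a difference of 1.44 ± 0.24 (adjusted p = 0.221). Runx1 read 763 and 837 on the EnhDel arrays, against 1412 and 1487 on the control arrays, a difference of -0.86 ± 0.15 (adjusted p = 0.233). Lyl1, a relative of Tal1, differed by -1.09 ± 0.15 (adjusted p = 0.194), and the ETS factor gene Fli1 by -0.09 ± 0.19 (adjusted p = 0.885). Of the 11 regulators measured on all 4 arrays, the EnhDel arrays lay above the control arrays in 3 and below in 3, beside 25.1% and 16.7% of all genes measured on all 4 arrays, and their median difference was 0.05.

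No other surface gene of platelets passed limma's threshold. Of 19 listed, 12 were measured on all 4 arrays and 6 were well above background on none, among them Gp1ba, the gene of the ligand-binding chain of the von Willebrand factor receptor. Of the 12, the EnhDel arrays lay above the control arrays in 6 and below in none, beside 25.1% and 16.7% of all genes measured on all 4 arrays. Their median difference was 0.26, and 8 of the 12 differences were positive and 4 negative, from -0.54 to 1.15. Cd36, a thrombospondin receptor gene, differed by 1.15 ± 0.44, P2rx1, an ATP-gated channel gene, by 0.68 ± 0.30, and Treml1, a receptor gene of alpha granules, by 0.32 ± 0.16 (adjusted p from 0.465 to 0.551 in limma).

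Of 22 other genes of granules, cytoskeleton and signalling in platelets, 16 were measured on all 4 arrays. The EnhDel arrays lay above in 10 and below in 3 of these, beside 25.1% and 16.7% of all genes measured on all 4 arrays. The median difference was 0.53, and none passed the adjusted threshold. At an unadjusted p under 0.05, 4 were higher and 1 was lower, beside 4.89% and 3.75% of all genes measured on all 4 arrays. Counted over all 18 tested genes, which adds 2 that were not well above background on 1 EnhDel array, the EnhDel arrays lay below in 5. That happened in 12.9% of all genes without a filter on dim probes. At that p 4 of the 18 were higher and 3 lower, beside 1324 higher and 807 lower of all 19391 tested genes. Dok2, an adaptor gene of blood cells, read 517 and 550 on the EnhDel arrays, against 278 and 253 on the control arrays (1.01 ± 0.15, SE, adjusted p = 0.210 in limma). Myl9, a myosin light chain gene, and Rab27b, a gene for granule secretion, differed by 0.72 ± 0.19 and 0.57 ± 0.15 (adjusted p = 0.349 and 0.351). F13a1, the gene of coagulation factor XIII A, which monocytes and macrophages also express, had a negative difference, as did 6 of the 18 tested genes. It read 38.7 and 4.94 on the EnhDel arrays, the second not well above background, against 1070 and 982 on the control arrays, a fitted difference of -6.21 ± 1.02 (adjusted p = 0.219). Mmrn1, the gene of an alpha granule protein that endothelial cells also make, read 37.3 and 4.19 on the EnhDel arrays, the second not well above background, against 117 and 167 on the control arrays, a fitted difference of -3.49 ± 1.09 (adjusted p = 0.398).

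**Figure D3:**
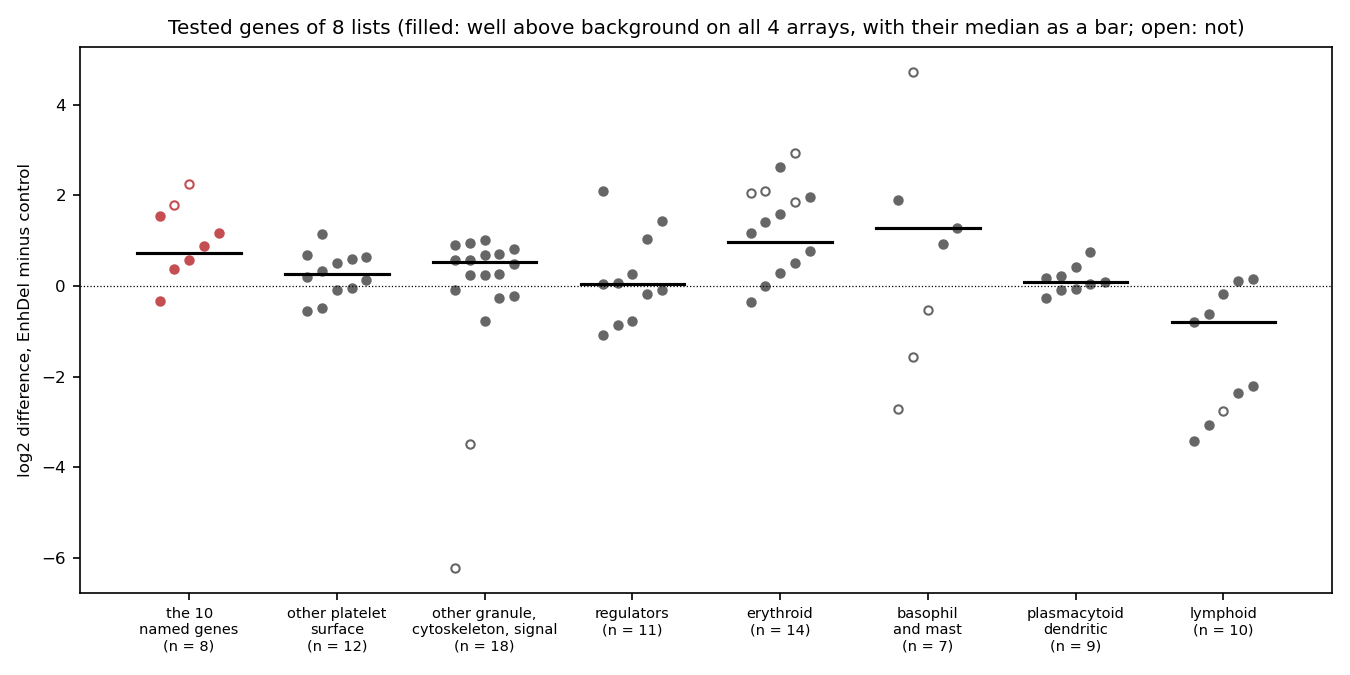
Log2 difference (EnhDel minus control) of the tested genes of 8 lists. Each point is a gene, filled where it was well above background on all 4 arrays and open where it was not, and the bar is the median of the filled points. The bar lies at 0.73 for the 10 named genes (6 filled points), at 0.26 and 0.53 for the other platelet lists and at 0.05 for the regulators. It is highest for the basophil and mast cell genes (1.28, 3 filled points) and lies at 0.97 for the erythroid genes. For the plasmacytoid dendritic cell genes it is 0.10 and for the lymphoid genes -0.80.

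Genes of red cell precursors, which share Gfi1b, Gata1 and Tal1 with megakaryocytes, mostly gave positive differences, and none passed limma's threshold. Of 16 listed erythroid genes, 14 were tested, some only through their EnhDel arrays, with 12 positive and 2 negative differences. Of the tested genes, 10 were measured on all 4 arrays. In these 10 the EnhDel arrays lay above the control arrays in 7 and below in 1, beside 25.1% and 16.7% of all genes measured on all 4 arrays, and the median difference was 0.97. The gene below was Tfrc, the transferrin receptor gene, at -0.36 ± 0.16 (SE, adjusted p = 0.501 in limma). The defining red cell factor gene Klf1 read 44.0 and 17.7 on the EnhDel arrays, against 3.39 and 3.97 on the control arrays, where it was not well above background, and was at least 2.05-fold higher. The erythropoietin receptor gene Epor was at least 3.66-fold higher, and Car1, a carbonic anhydrase gene, differed by 1.17 ± 0.16 (SE, adjusted p = 0.194 in limma). The globin gene Hbb-bt read 1264 and 2477 on the EnhDel arrays, against 170 and 486 on the control arrays. Near-identical globin genes can share a probe. The globin genes Hbb-b2, Hba-a1 and Hba-a2 were also among the 7 above, so that count and the median of 0.97 may not rest on separate readings. The membrane protein gene Rhag was well above background on none of the 4 arrays. The summed signal of the list was 60775 to 73876 on the EnhDel arrays, against 61882 to 63668 on the control arrays. Most of that sum came from 1 probe, that of Hemgn, so it says little on the other genes. Hemgn read 57946 and 44214 on the EnhDel arrays, against 51483 and 50137 on the control arrays. The part that red cell precursors have in the differences of the 10 genes was not tested.

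Basophil and mast cell genes were given the same look, since those cells share GATA factors and some surface genes with megakaryocytes. Of 10 listed, 3 were measured on all 4 arrays, with a median difference of 1.28, and 3 were well above background on none. Of the 7 tested, 4 had a positive and 3 a negative difference, and none passed the adjusted threshold. Il1rl1 differed by 1.90 ± 0.26 and Tpsb2 by 0.92 ± 0.29 (SE, adjusted p = 0.194 and 0.398 in limma), Gzmb, which other cytotoxic cells also express, was at least 9.70-fold higher, and the histamine enzyme gene Hdc differed by -2.71 ± 1.43 (adjusted p = 0.574). The basophil protease genes Mcpt8 and Prss34 differed by -1.57 ± 1.16 and -0.54 ± 0.45 (adjusted p = 0.681 and 0.716), and Hdc, Mcpt8 and Prss34 were each well above background on 1 of the 2 EnhDel arrays. The summed signal was 970 and 2837 on EnhDel replicates 1 and 2, against 792 and 819 on the control arrays. Most of the sum on EnhDel replicate 2 came from Cpa3, at 1655. Cpa3 read 354 on EnhDel replicate 1 and 280 and 356 on the control arrays. The part of these genes in the result was not tested. All 9 plasmacytoid dendritic cell genes listed were well above background on all 4 arrays, with a median difference of 0.10 and none with an unadjusted p under 0.05 in limma. Of 10 lymphoid genes listed, 9 were measured on all 4 arrays, with a median difference of -0.80 and the EnhDel arrays lower without overlap in 6, beside 16.7% of such genes. Over all 10, which adds Rag2, well above background on 1 of the 2 EnhDel arrays, the median was -1.51. In 7 the EnhDel arrays were lower without overlap, beside 12.9% of all genes without a filter on dim probes. None of the 10 passed the adjusted threshold.

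The sizes of the differences were not the same under every processing of the signal. With a normexp background correction after repair of distorted spots, the log2 difference was 0.43 for Gp9, 0.41 for Itga2b, 0.65 for Ppbp and 0.69 for Gfi1b. In the authors' deposited log2 table, which has 1 decimal, Ppbp stood at 6.8 and 6.7 on the EnhDel arrays, against 6.3 and 6.0 on the control arrays. Gp9 stood at 6.1 and 6.0 on the EnhDel arrays, against 5.8 and 5.5 on the control arrays, and Itga2b at 5.8 and 6.0, against 5.4 and 5.5. Both EnhDel values thus lay above both control values there as well, as they did for Gfi1b and Vwf, but the differences were 0.60 for Ppbp, 0.40 for Gp9 and 0.45 for Itga2b, beside 1.54, 1.79 and 2.25 from the processed signal. Gfi1b differed by 0.70 in the deposited table and by 1.17 from the processed signal. Which step of the processing makes these sizes differ was not tested. For Gp1bb the deposited table has 1 row, which gives the position of the last probe, and the groups did not differ there (0.00).

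**Figure D4:**
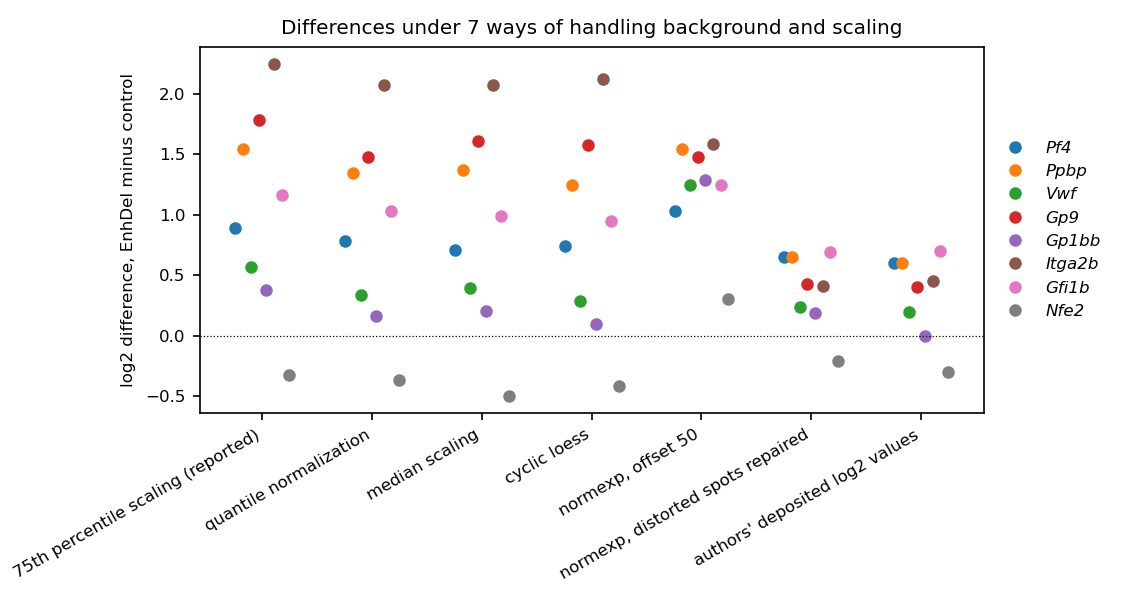
Log2 difference (EnhDel minus control) of the 8 tested genes under 7 ways of handling background and scaling, 1 colour per gene. Itga2b and Gp9 lie at 2.25 and 1.79 with the reported scaling and at 0.45 and 0.40 in the authors' deposited values, Gfi1b lies at 1.17 and 0.70, and Nfe2 is above 0 with the unrepaired normexp correction alone.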

How the data were processed

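RNA of 4 samples was labelled with Cy3 and read on Agilent expression arrays, 1 array per sample, all on 1 slide and in 1 scan. The authors deposited 1 scanner file per array with the intensity of 44397 spots, made with Agilent Feature Extraction 10.7.3.1 and placed on mm9, per the file headers. The processed signal used here is already background-subtracted and detrended by that software, per the file headers. The authors also deposited a table on a log2 scale with 1 decimal and 31597 rows. How it was made is not stated in the labels or headers. Its 4 columns share their quartiles (medians of 6.5), and each followed the log2 of its array's median signal without background subtraction (r of 0.9998 to 0.9999 over 24810 genes).

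Control spots and spots flagged as outliers (126 to 162 per array) were left out. Signals were divided by each array's 75th percentile and put on a log2 scale. Of the 39429 probes, 26581 were named through RefSeq accessions (GRCm38.p6, for names alone). A gene was tested on its brightest probe where a whole group, EnhDel or control, was well above background. The comparison used limma 3.58.1 in R 4.3.3 (lmFit, then eBayes), with p-values adjusted by Benjamini-Hochberg over 19391 genes at a threshold of 0.05. The fit was tested on simulated data. The lowest signals well above background, before scaling, were 12.4 and 12.2 on the EnhDel arrays, against 14.4 and 13.7 on the control arrays. Precision is limited by having 4 arrays.

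The 10 genes and all lists were chosen with earlier results of these data known. All 10 genes were named, with up to 4 genes of smallest p in each other platelet list and Gata1, Fli1, Runx1, Itgb3 and Gp1ba whatever their values, and up to 4 genes of each other cell type. Some genes that this rule takes are not reported here. Mafg, Mafk, Mmrn1, Tfrc, Hemgn, Hbb-b2, Hba-a1, Hba-a2, Cpa3, Mcpt8, Prss34, Rag2, Enpep, Ptprc, Spn, Cd24a, Rhag and the sex-linked genes were named after their values were seen. Alternatives were normexp background correction (offset 50), the same with distorted spots repaired, quantile, median and cyclic loess scaling, other filters, other probe choices, a block for the replicate number, leaving out 1 array at a time, a variance trend and the authors' values. The count of genes without overlap was added under these after seeing the data.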

Additional observations from a re-analysis of the deposited data

How the results depend on the processing

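The result that no gene of the 10 passed an adjusted p of 0.05 held under 15 of 16 alternatives, the exception being the fit without EnhDel replicate 1. Leaving out 1 array at a time gave 0 to 2 of the 10 genes (Vwf and Itga2b without EnhDel replicate 1), 0 to 17 of the 41 other platelet genes tested and 0 to 3210 of all genes, with 3210 without EnhDel replicate 1, 93 without EnhDel replicate 2 and 3 without control replicate 2. A fit without 1 array takes its spread from the 2 arrays of the other group alone. Without an EnhDel array these are the control arrays, the closer pair (SD of 0.333, against 0.611 for the EnhDel arrays). Counts from such fits carry no spread of the group left with 1 array, so no gene is taken as changed from them. Median scaling called 26 genes, none of them among the 10, and moved the median of all genes to -0.12, against 0.06 as reported. The median difference of the 8 tested genes, 2 of which were tested only through their EnhDel arrays, was 1.03. It was 0.42 with the repaired normexp correction, 0.43 in the authors' deposited values, 0.73 with the filter at all 4 arrays and 0.78 to 1.34 with 1 array left out. Nfe2 turned positive with the unrepaired normexp correction (0.31), which moved the median of all genes to 0.20, and lay at -0.90 to 0.26 with 1 array left out, while Gp1bb lay at -0.12 to 0.88. The cause of these shifts was not tested. With all 4 arrays, EnhDel lay above control without overlap in 5 to 8 of the 10 genes (6 as reported) under the other background corrections and scalings and in the authors' values, beside 12.5% to 42.2% of all genes, in settings chosen after seeing the data. Leaving out an array can only add to that count. Same-numbered arrays did not deviate together (r = -0.02), and with the replicate number as a block 0 genes were called and the median of the 8 genes was 1.03. Dim signal limits Gp5, Gp6 and the control values of Gp9 and Itga2b.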
